A study of Mus musculus with 12 samples.

Results

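The transcripts of 8 AP-1 genes, Fos, Fosb, Fosl2, Jun, Junb, Jund, Atf3 and Batf, were followed in CD8+ T cells (cytotoxic lymphocytes) of mouse lymph nodes over the circadian cycle. The 8 genes were taken by name, out of 50600 gene identifiers in the files, and all 8 were measured in all 12 libraries. The mice were male C57BL/6J animals of 8 weeks kept in constant darkness, and no genotype or drug differed between groups. Polyadenylated RNA was sequenced once per collection day, over 2 days, at CT2, CT6, CT10, CT14, CT18 and CT22, where CT is circadian time in h. By convention CT14, CT18 and CT22 fall in the subjective night, when mice are active, and CT2, CT6 and CT10 in the subjective day. The number of mice behind each sample is not stated, and the p-values therefore reflect the spread among these libraries alone.

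AP-1 is a dimer of basic leucine zipper proteins that binds DNA after cell activation. Fos family proteins must pair with a Jun family protein to bind, whereas Jun proteins can also pair with each other, and Batf and Atf3 pair with Jun proteins. Fos, Fosb, Jun, Junb and Atf3 are immediate early genes, whose transcripts appear within minutes of a stimulus such as T cell receptor signalling or stress, including the handling of tissue, and are short lived. In T cells AP-1 acts together with NFAT at cytokine genes, and Batf together with IRF4 at genes of effector T cells.

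In these libraries Junb was the most abundant of the 8 transcripts and Atf3 the least. No AP-1 gene passed the test of a 24 h wave, of the 6 circadian times, of night against day or of collection day after adjustment over all genes. Fosl2 came closest, with a higher level in the subjective night by 0.24 ± 0.06 log2 (SE) and an adjusted p of 0.0743 in edgeR's quasi-likelihood test. Fos, Fosb, Jun and Junb varied together from library to library. The 2 libraries of one circadian time lay up to 1.89-fold apart for Fos and 2.26-fold for Fosb.

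The promoters of the 4 genes that moved together in every pair are shown for short matches to the cAMP response element. CREB and ATF proteins act at this site in immediate early genes. They are RefSeq windows on GRCm38.p6, from 250 bases before to 50 bases after the RefSeq start and written in the direction of transcription. Capitals mark the cAMP response element core TGACG on either strand and the looser 8-base pattern TGANNTCA, in which N is any base. A match to TGANNTCA need not hold the core and is not by itself a cAMP response element. The windows are chr12:85473640-85473939 on the plus strand for Fos, and on the minus strand chr7:19309996-19310295 for Fosb, chr4:95052173-95052472 for Jun and chr8:84978699-84978998 for Junb.
Fos: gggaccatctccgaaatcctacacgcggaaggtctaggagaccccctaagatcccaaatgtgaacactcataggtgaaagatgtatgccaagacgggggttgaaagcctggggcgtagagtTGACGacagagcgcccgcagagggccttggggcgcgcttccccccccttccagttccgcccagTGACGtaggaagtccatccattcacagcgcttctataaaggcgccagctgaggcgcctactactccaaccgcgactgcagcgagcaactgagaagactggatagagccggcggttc
Fosb: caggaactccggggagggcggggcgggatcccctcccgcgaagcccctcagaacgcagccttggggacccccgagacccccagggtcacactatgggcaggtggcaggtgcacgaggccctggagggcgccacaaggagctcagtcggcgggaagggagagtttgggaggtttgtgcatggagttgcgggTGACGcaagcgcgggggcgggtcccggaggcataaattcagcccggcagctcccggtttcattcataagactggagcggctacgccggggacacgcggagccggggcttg
Jun: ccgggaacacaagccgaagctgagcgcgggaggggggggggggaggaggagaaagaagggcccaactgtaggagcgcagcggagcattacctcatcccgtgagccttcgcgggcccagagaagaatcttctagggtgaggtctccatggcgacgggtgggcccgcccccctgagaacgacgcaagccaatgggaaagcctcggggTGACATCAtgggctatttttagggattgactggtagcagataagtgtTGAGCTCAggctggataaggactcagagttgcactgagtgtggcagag
Junb: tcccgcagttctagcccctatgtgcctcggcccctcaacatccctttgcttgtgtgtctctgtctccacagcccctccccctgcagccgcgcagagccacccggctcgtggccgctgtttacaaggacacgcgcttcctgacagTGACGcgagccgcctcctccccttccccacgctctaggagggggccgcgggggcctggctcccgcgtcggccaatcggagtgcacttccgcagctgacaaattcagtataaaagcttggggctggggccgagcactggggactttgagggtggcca
The Fos window held TGACG with its first base at -129 and at -66 from the start, the Fosb window at -60 and the Junb window at -106. The Jun window held no TGACG but TGACATCA at -45 and TGAGCTCA at 3. Among all 8 genes, TGACG was also found for Atf3 and Batf, so in 5 of 8 windows, against 20.8% of 32851 RefSeq windows of that length. These windows held 58.7% GC for Fos, 68.3% for Fosb, 65.3% for Junb, 64.7% for Atf3 and 49.7% for Batf. The median over all windows was 52.7%. The part of base composition in the share of windows with TGACG was not tested. TGANNTCA was found for Jun and Jund, against 14.1% of all windows. The TPA response element TGANTCA, a site that AP-1 itself binds, was found in 0 of 8, against 7.81%. The patterns were searched on both strands, and a window can hold TGACG and TGANNTCA at the same bases. TATAAA was found for Fos and Junb, against 13.6% of windows, and CCAAT for Jun, Junb and Atf3, against 37.4%. The CArG box, the binding site of serum response factor, was not matched in these windows for any of the 8, against 1.63% of all windows. The RefSeq start of Jund lay 1210 bases upstream of the GENCODE M21 transcript's start and that of Fosl2 lay 671 bases downstream of it. Their windows are therefore not shown, though they count among the 8.

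The genes lie on 6 chromosomes of GRCm38, by the GENCODE M21 annotation. Fos (ENSMUSG00000021250.13) spans chr12:85473890-85477273 and Batf (ENSMUSG00000034266.5 in the files) chr12:85686669-85709087, 209.4 kb apart on the plus strand with 1 coding gene between them, Jdp2, which encodes another AP-1 repressor. Jun (chr4:95049034-95052222, minus), Junb (chr8:84974484-84978718, minus) and Jund (chr8:70698949-70700616, plus) each have 1 exon. Fosb lies at chr7:19302696-19310051 (minus), Fosl2 at chr5:32135801-32157842 (plus) and Atf3 at chr1:191170296-191218039 (minus). On the opposite strand, Jund overlaps the antisense gene Gm11175 by 919 bases, Jun overlaps Junos by 689 and Junb overlaps Prdx2 by 351. The counts used here keep the strand. Counting without strand gave Jund 40.9% to 44.6% of its stranded count.

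The ends of the transcripts also differ. AU-rich elements in the 3′ UTR, built from ATTTA, mark transcripts for rapid decay. Fos had 4 ATTTA in 815 bases of 3′ UTR, or 4.91 per kb, above 91.7% of 20502 coding genes, and Junb had 4.12 and Jun 3.24 per kb, against a median of 1.14 over all genes. Fosb had 0.47 per kb, above 39.4% of genes and below that median. Batf had 0 ATTTA in 335 bases. The longer nonamer of this class, TTATTTATT, was found in Fos and Fosl2, against 6.96% of coding genes, and both sites are shown in mRNA direction with the nonamer in capitals.
Fos: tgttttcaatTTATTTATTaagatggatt
Fosl2: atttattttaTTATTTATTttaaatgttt

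Levels between genes are compared as TPM, which takes account of transcript length. Junb, the Jun family member that limits c-Jun activity in many cells, averaged 243 ± 32.6 TPM (SD, n = 12, as for the next values). Jund, a Jun protein made in resting cells too, averaged 145 ± 14.7 TPM and Fos 94.9 ± 26.0 TPM. Jun averaged 48.8 ± 10.2 TPM and Batf 37.2 ± 2.49 TPM. Fosb averaged 13.5 ± 4.45 TPM, Fosl2, which encodes Fra-2, 5.40 ± 0.68 TPM, and Atf3, a stress-induced repressor, 2.16 ± 0.66 TPM. This order held in each of 12 libraries between all neighbours except Jun and Batf, where Jun was higher in 10 of 12. The ranges of Jund and Fos, of Fos and Jun, and of Jun and Batf overlapped between libraries, while the other 4 neighbours did not overlap. The 8 transcripts summed to 481.8 to 701.8 TPM, and Junb supplied 38.4% to 43.7% of the sum. The values that follow are in CPM, counts scaled to library size, and compare 1 gene between libraries.

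Fos, the partner of Jun in classical AP-1, had 166, 189.8, 96.1, 125.5, 189.5 and 173 CPM at CT2, CT6, CT10, CT14, CT18 and CT22 on collection day 2. On collection day 1 it had 161, 100.4, 88.6, 158, 111 and 191 CPM at the same times. Both CT10 libraries were the lowest of the 12, while at CT6 and CT18 the 2 libraries of a time lay 1.89-fold and 1.71-fold apart, higher on collection day 2. Fosb, a close relative of Fos, had 46.1, 48.0, 23.8, 24.2, 60.3 and 44.1 CPM over the same times on collection day 2. Its levels on collection day 1 were 69.9, 36.4, 25.9, 46.5, 26.6 and 53.8 CPM. Its CT18 libraries differed 2.26-fold and its CT14 libraries 1.92-fold in the opposite direction, so that the 3 lowest libraries were both CT10 libraries and CT14 of collection day 2.

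Jun had 148, 131, 92.4, 122, 143 and 132 CPM from CT2 to CT22 on collection day 2. For collection day 1 Jun had 132, 89.8, 82.4, 153.5, 97.8 and 145 CPM. Its 3 lowest libraries, both of CT10 and CT6 of collection day 1, were the 3 lowest of Fos too. Junb had 365.7, 381.5, 276.5, 292.8, 392.1 and 304.2 CPM on collection day 2. On collection day 1 Junb had 412.5, 290.6, 283.9, 354.1, 281.9 and 372.4 CPM, and its day 1 and day 2 values ran in opposite directions at CT6 and CT18 against CT14 and CT22. At CT2 the order of the days was reversed in TPM, with 255.6 on collection day 1 and 267.4 on collection day 2. Jund, which varied least of the Jun genes relative to its level, had 231.5, 219.5, 184.1, 220.5, 222.4 and 187.0 CPM on collection day 2. Jund on collection day 1 had 228.1, 171.5, 196.6, 239.9, 192.1 and 222.0 CPM, so in CPM its 2 libraries per time lay close at CT2 and farther apart at CT6 and CT22. In TPM the CT2 libraries of Jund did not lie close, with 133.4 on collection day 1 and 161.1 on collection day 2. Those of Fos (92.1 and 109.7 TPM) and of Jun (44.6 and 59.6 TPM) were also farther apart than in CPM, in the same order of days.

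Fosl2 had 25.2, 28.9, 26.3, 29.95, 29.9 and 28.7 CPM from CT2 to CT22 on collection day 2. The collection day 1 libraries of Fosl2 had 24.2, 24.1, 21.9, 29.7, 29.3 and 29.8 CPM. The 2 libraries of CT14, of CT18 and of CT22 differed by -0.05 to 0.03 log2, collection day 2 minus collection day 1. Batf, the factor of effector T cells, had 23.3, 24.8, 27.35, 28.7, 25.1 and 24.3 CPM on collection day 2. On collection day 1 Batf had 32.2, 23.8, 23.7, 28.25, 23.2 and 25.5 CPM, and its highest library, CT2, stood 1.38-fold above the CT2 library of collection day 2. In TPM the CT2 libraries of Batf had 39.75 on collection day 1 and 33.9 on collection day 2. Its highest library in TPM was CT14 of collection day 1, at 41.5. Atf3, with 1112 reads over 12 libraries in all, had 1.54, 3.82, 2.58, 3.365, 4.61 and 4.34 CPM on collection day 2. Atf3 on collection day 1 had 4.61, 2.67, 1.875, 3.61, 2.845 and 4.02 CPM. The CT2 libraries lay farthest apart, 2.99-fold.

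**Figure D1:**
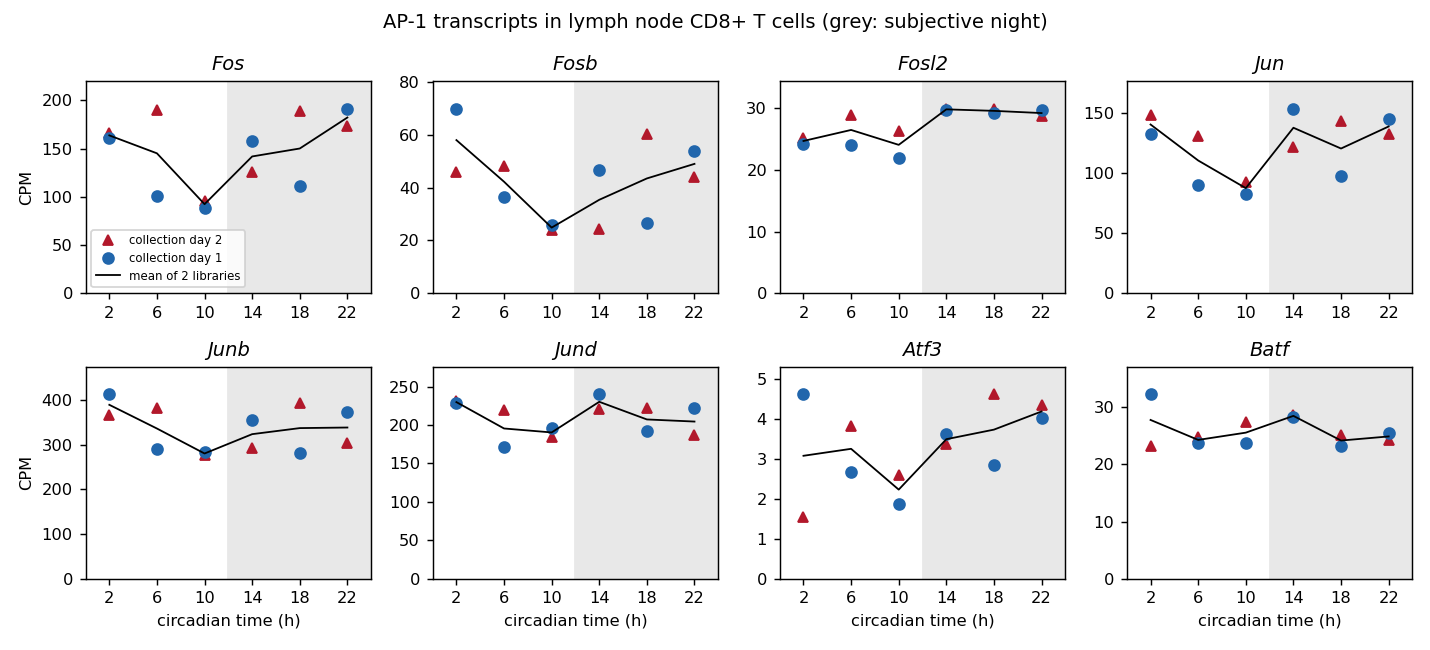
CPM of each AP-1 gene (y axis, from 0) by circadian time in h (x axis), with triangles for collection day 2, circles for collection day 1 and a line through the mean of 2 libraries; the subjective night is grey. The Fos libraries of CT10 (96.1 and 88.6 CPM) lie lowest, and the libraries of CT6 and of CT18 lie apart, while Fosl2 is level through the night.

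**Figure D2:**
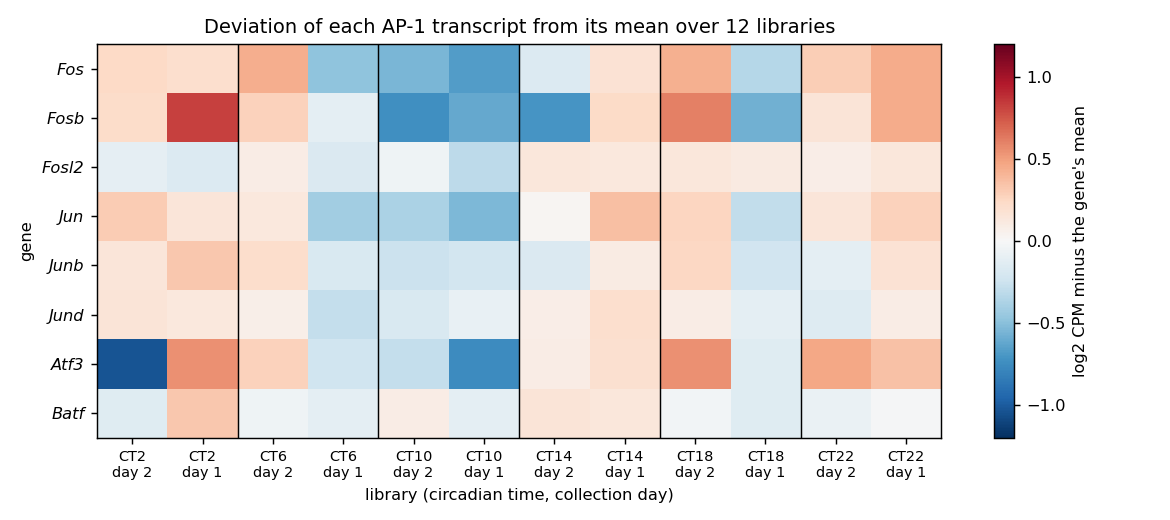
log2 CPM of each gene minus its own mean over 12 libraries (colour), with libraries in columns by circadian time and collection day. Fos, Fosb, Jun and Junb share their blue CT10 columns and their contrast between the 2 libraries of CT6 and of CT18, which Batf lacks.

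The 2 libraries of a time differed more for most AP-1 genes than for the median gene. The within-time SD was 0.36 log2 for Fos and 0.49 for Fosb, higher than in 96.9% and 98.9% of 10153 genes of at least 5 CPM, whose median was 0.0933. Jun had a within-time SD of 0.26 log2 (93.6th percentile), Junb 0.22 (91.5th), Batf 0.15 (82.1st), Jund 0.15 (80.1st) and Fosl2 0.11 (63.1st). The SD of the time means was 0.33 log2 for Fos, 0.42 for Fosb, 0.27 for Jun and 0.14 for Fosl2. Among the same genes, whose median was 0.0822, Fosb stood at the 98.5th percentile, Fos at the 97.7th and Jun at the 96.0th. Junb (85.1st), Fosl2 (81.9th), Jund (73.8th) and Batf (62.0th) followed. A time mean averages 2 libraries, so its SD is expected to lie below the within-time SD even without an effect of time. The 2 kinds of SD are therefore not set against each other here.

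**Figure D3:**
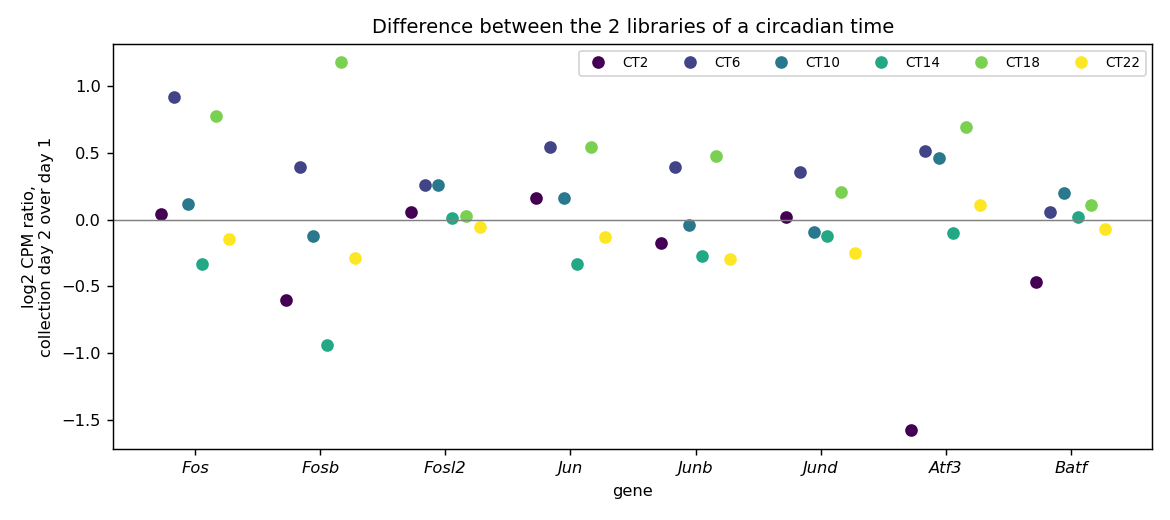
log2 ratio of collection day 2 over collection day 1 (y axis) for each gene (x axis), with 1 point per circadian time by colour. Fosb spans from -0.94 at CT14 to 1.18 at CT18, whereas the Fosl2 points lie between -0.05 and 0.26.

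Over the 24 h cycle, no AP-1 gene passed the test, and the fitted peaks of Fos, Fosb, Jun, Junb and Atf3 fell late in the subjective night. Amplitudes are given as log2 from mean level to peak, ± the standard error. Fosb had an amplitude of 0.48 ± 0.15 log2 and a peak at 23.6 ± 1.2 h (adjusted p = 0.301 by edgeR's quasi-likelihood test). Fos had 0.36 ± 0.12 log2 and a peak at 22.5 ± 1.2 h (adjusted p = 0.321), and Fosl2 had 0.14 ± 0.05 log2 and a peak at 18.0 ± 1.3 h (adjusted p = 0.321). The amplitudes of Jun, Junb and Atf3 were 0.24 ± 0.10, 0.16 ± 0.07 and 0.31 ± 0.16 log2, with peaks between 20.6 and 23.95 h. Jund (0.05 ± 0.06 log2) and Batf (0.02 ± 0.06 log2) had amplitudes within their standard error, so their peak times are not given. Of the 8 genes, 0 passed and 3 had an unadjusted p under 0.05 (Fos, Fosb and Fosl2). Of 16396 genes tested, 0 passed (0%) and 13.3% had an unadjusted p under 0.05. The median amplitude of the 8 was 0.20 log2, and that of all genes 0.10. Amplitudes of up to 0.59 log2 for Fos and 0.77 for Fosb lay within 2 standard errors. The fits leaned on the low CT10 libraries. Without both of these, the amplitude was 0.20 log2 for Fos, 0.34 for Fosb, 0.10 for Jun, 0.099 for Junb and 0.12 for Fosl2.

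Compared among the 6 circadian times with any shape allowed, 0 of 8 AP-1 genes passed, against 0.256% of all genes tested. Jun and Fosl2 had the smallest p, with unadjusted values of 0.0384 and 0.0385 and adjusted values of 0.357 each by edgeR's quasi-likelihood test. The highest and lowest time means lay 0.68 log2 apart for Jun and 0.31 for Fosl2, while those of Fosb (1.22) and Fos (0.98) lay farther apart but with more spread between libraries. Batf had the smallest distance at 0.24 log2.

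Fosl2 stood higher in the subjective night, at 29.6 ± 0.47 CPM, against 25.1 ± 2.37 CPM in the subjective day (SD, n = 6 each). The 6 night libraries lay between 28.7 and 29.95 CPM, and 5 of them exceeded all 6 day libraries, which reached from 21.9 to 28.9 CPM. The log2 difference of night minus day was 0.24 ± 0.06 (95% interval 0.11 to 0.37), with an unadjusted p of 0.00223 and an adjusted p of 0.0743 in edgeR's quasi-likelihood test. With DESeq2 the adjusted p was 0.0335 at a difference of 0.24, and over all alternatives it ran from 0.00581 to 0.215. It was 0.0413 without CT2 of collection day 1, 0.0399 without CT2 of collection day 2 and 0.0451 without CT10 of collection day 2. Fosl2 did not pass the rule set for this test, so the higher night level is not counted as a change.

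The other night and day levels overlapped more. Jun had 132 ± 20.1 CPM by night and 113 ± 27.8 CPM by day (SD, n = 6 each), a difference of 0.25 ± 0.11 log2 (adjusted p = 0.262 by edgeR). Fos had 158 ± 33.6 CPM by night and 134 ± 43.6 CPM by day, a difference of 0.27 ± 0.16 log2 (adjusted p = 0.378 by edgeR). Atf3 had 3.80 ± 0.65 CPM by night and 2.85 ± 1.17 CPM by day, a difference of 0.43 ± 0.24 log2 (adjusted p = 0.356 by edgeR), and without CT2 of collection day 1 this difference was 0.77 with an adjusted p of 0.0184. Without CT2 of collection day 2 it was 0.24 with an adjusted p of 0.396. For Fosb (0.10 ± 0.21), Jund (0.06 ± 0.07), Junb (0.003 ± 0.098) and Batf (-0.002 ± 0.076) the log2 difference was smaller than its standard error. For Junb the 95% interval reached from -0.21 to 0.22 log2 and for Batf from -0.17 to 0.17. In all, 7 of 8 genes had a positive difference and 0 passed, and the sign of Batf changed with RLE factors and that of Junb when strand was ignored. Of all genes tested, 1.64% passed, 0.646% higher and 0.994% lower by night, and with collection day as a block 92 genes passed rather than 269. The median of the 8 differences was 0.17 log2, against -0.006 over all genes.

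The low CT10 libraries were noticed in the values, and a contrast of CT10 against the mean of the other 5 times was then added, so its p-values describe a pattern already seen. Jun averaged 87.4 ± 7.10 CPM in the CT10 libraries (SD, n = 2), and its other 10 libraries lay between 89.8 and 153.5 CPM. Its log2 difference was -0.56 ± 0.16 (unadjusted p = 0.00478, adjusted p = 0.282 by edgeR). Fos averaged 92.3 ± 5.32 CPM at CT10 (SD, n = 2), with a difference of -0.76 ± 0.23 log2 (adjusted p = 0.30 by edgeR), and Fosb had -0.86 ± 0.31 log2 (adjusted p = 0.346). Fosl2 (-0.21 ± 0.08 log2), Junb (-0.30 ± 0.14), Atf3 (-0.66 ± 0.34) and Jund (-0.16 ± 0.09) also had negative differences, and Batf had -0.02 ± 0.10. The Fosl2 difference was -0.35 without the CT10 library of collection day 2 and -0.087 without that of collection day 1. All 8 were negative, though Batf was at 0.082 without the CT10 library of collection day 1, and 4 of 8 had an unadjusted p under 0.05, against 12.3% of all genes tested. The contrast was chosen after these low values were seen, so the larger share among the 8 is not a result about them. After adjustment 0 of 8 passed, against 0.0061% of all genes tested. Summed monocyte and macrophage markers at CT10 stood at 1473 CPM on collection day 2 and 1082 CPM on collection day 1, against 1119 to 2557 CPM in the other 10 libraries. Their part in the difference was not tested.

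**Figure D4:**
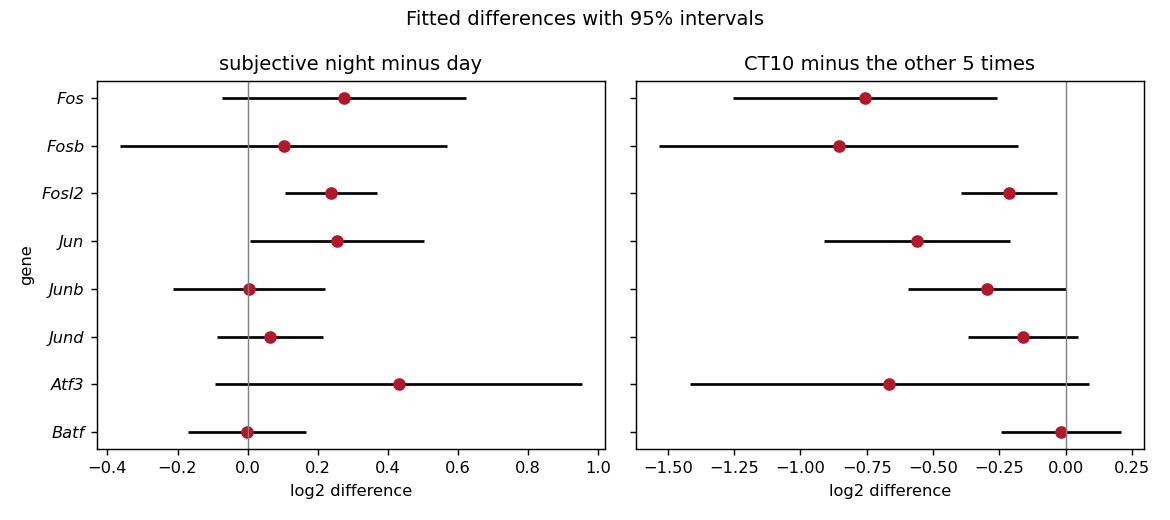
Fitted log2 difference (x axis, points) with its 95% interval (bars) for each gene, for subjective night minus day (left) and CT10 minus the mean of the other 5 times (right). The night interval of Fosl2 lies above 0 (0.11 to 0.37), and the CT10 points of all 8 genes lie below 0.

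Between the collection days no AP-1 gene passed, and each 95% interval of the 8 differences held 0. The largest log2 differences of collection day 2 minus collection day 1 were 0.23 ± 0.15 for Fos and 0.16 ± 0.11 for Jun, and adjusted p was 1 for all 8 by edgeR. Fos had 157 ± 37.9 CPM on collection day 2 and 135 ± 40.9 CPM on collection day 1 (SD, n = 6 each). No gene of 16396 passed this test (0%), and 311 had an unadjusted p under 0.05. The wave itself was compared between days too. Fos had an amplitude of 0.36 log2 on collection day 2 and 0.41 on collection day 1, Fosb 0.53 and 0.45, and Fosl2 0.08 and 0.22. None of the 8 passed (adjusted p of 0.825 or more by edgeR), nor did any of all genes tested (0%), of which 728 had an unadjusted p under 0.05.

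Across the 12 libraries, Fos, Fosb, Jun and Junb kept close to each other, and Jund to Jun and Junb. Fos and Jun had a Pearson r of 0.93 (Spearman rho 0.71) and Fosb and Junb an r of 0.92 (rho 0.94). With 100000 two-sided permutations of libraries and adjustment over 28 pairs, 8 pairs passed by Pearson r and 10 by Spearman rho. Adjusted p was 0.00196 for Fos with Jun and 0.00028 for Fosb with Junb, which is the smallest that these permutations could give. The other 6 pairs were Fos with Junb (0.845) and with Fosb (0.83), Jun with Jund (0.81), with Junb (0.80) and with Fosb (0.75), and Junb with Jund (0.77). Within collection day 2 these 8 r values ran from 0.70 to 0.93, and within collection day 1 from 0.81 to 0.97. Without the 2 libraries farthest from the median of one gene of the pair they ran from 0.70 to 0.88. Without both CT10 libraries, 2 of 28 pairs passed, while Fos with Fosb still had an r of 0.74 and Fos with Junb 0.79. Libraries of the same time were permuted as if unrelated, and these p-values can be too small for that reason.

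No pair with Atf3, Fosl2 or Batf passed by Pearson r. Atf3 had an r of 0.58 with Fos, 0.54 with Fosb, 0.47 with Jun and 0.45 with Junb, and by Spearman rho it passed with Fosb (0.72) and Junb (0.70). Fosl2 reached its highest r with Atf3 (0.59) and Jun (0.57), and Batf with Atf3 (0.49), none of which passed. Against the mean of the standardised values of the 7 members of at least 5 CPM, which includes the gene itself, the r was 0.53 for Fosl2 and 0.46 for Batf. It was 0.95 for Jun, 0.92 for Fos, 0.90 for Junb, 0.84 for Jund and 0.82 for Fosb.

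**Figure D5:**
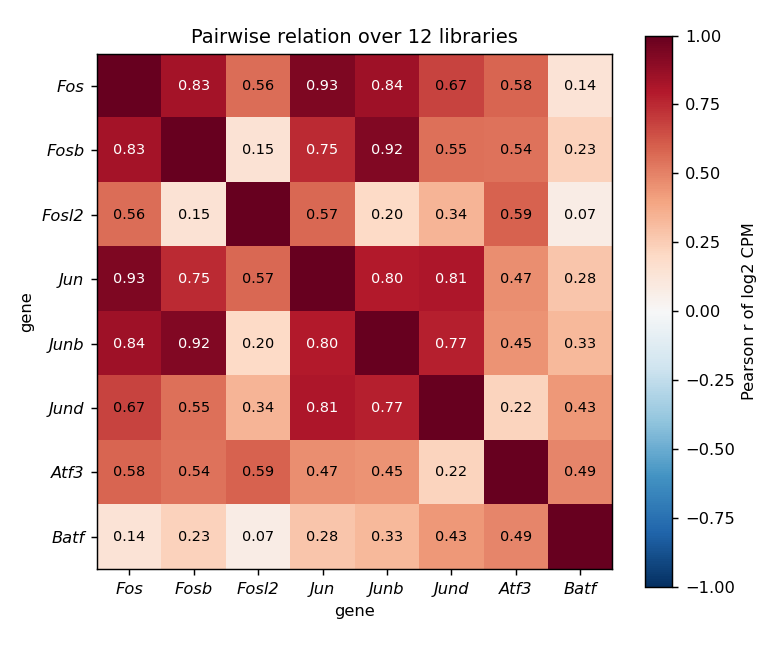
Pearson r of log2 CPM over 12 libraries for every pair of genes (rows and columns). Fos, Fosb, Jun and Junb form a block with r of 0.75 to 0.93, and the row of Batf stays at 0.49 or below.

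Beyond AP-1, the genes of at least 5 CPM whose levels most resembled the mean of the members were Btg1, an inhibitor of proliferation in resting lymphocytes (r = 0.93 over 12 libraries), and Dusp1, a phosphatase of MAP kinases (0.90). Klf6 and Ppp1r15a, a regulator of the stress response of translation, followed with 0.90 and 0.89, and Zfp637 with 0.89. For single genes, the nearest outside AP-1 were Cited2 (0.91) and Zfp36 (0.90) for Fos, and Dusp1 (0.92) and Bet1 (0.92) for Fosb. Zfp36 encodes a protein that binds AU-rich elements. Junb was nearest to Ppp1r15a (0.97) and Atf4 (0.91), Jun to Btg1 (0.91) and Rab18 (0.90), and Jund to Pnrc1 (0.95), Btg1 (0.91) and Dmac1 (0.90). Fosl2 was nearest to Bag3 (0.91), Elavl1 (0.89) and Ywhae (0.89), and Batf to Polr2g, Polr1d and Sdhaf2 (0.91 each). These are descriptions over shared libraries, ranked among 10153 genes.

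Genes of the pathway around AP-1 gave 0 passing members in every list and test. Of all genes tested, 0% passed for the 24 h wave, 0.256% for the 6 times and 1.64% by night. The share was 0% for collection day, 0% for the wave by day and 0.0061% at CT10. A count of 0 in a list is therefore near the share of all genes. Of the immediate early genes outside AP-1, 13 of 27 (48.1%) had an r above 0.5 with the mean of the AP-1 members, against 7.42% of all genes. In the subjective night, 27 of these 30 genes had a positive difference, 10 had an unadjusted p under 0.05 and 0 passed, with a median of 0.13 log2. Of all genes tested, 18.5% had an unadjusted p under 0.05 by night. Among the immediate early genes, Egr2, a zinc finger factor induced by T cell receptor signals, had a night minus day difference of 0.24 ± 0.06 log2 (adjusted p = 0.0673 by edgeR), and Cd69, an early activation receptor, 0.06 ± 0.08 (adjusted p = 0.749). Over the 6 circadian times, the highest and lowest means lay 0.64 log2 apart for Cd69 (adjusted p = 0.254 by edgeR) and 0.44 for Egr2 (adjusted p = 0.24).

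The other bZIP genes, of which 10 of 12 passed the filter, had 7 positive night differences and 0 that passed, against 1.64% of all genes. Maf, a factor of T cells and macrophages, had 0.48 ± 0.11 log2 (adjusted p = 0.0582 by edgeR). Among 10 partners and competitors of AP-1, 3 had an unadjusted p under 0.05 by night, against 18.5% of all genes, and 0 passed. Ets1 had -0.17 ± 0.06 log2 (adjusted p = 0.165 by edgeR) and Bach1, a repressor that competes at related sites, 0.07 ± 0.04 (adjusted p = 0.356). Of 24 tested kinases and factors upstream of AP-1, 11 had a positive night difference and 0 passed, against 1.64% of all genes. Creb1, which binds cAMP response elements, had 0.11 ± 0.03 log2 (adjusted p = 0.109 by edgeR), and Rps6ka5, a kinase that phosphorylates CREB, -0.06 ± 0.05 (adjusted p = 0.592). Among the 6 circadian times, the highest and lowest means lay 0.58 log2 apart for Rps6ka5 (adjusted p = 0.131 by edgeR) and 0.26 for Creb1 (adjusted p = 0.195).

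Among 6 genes of AP-1 protein turnover, Det1, a subunit of a ubiquitin ligase that targets Jun, had a night difference of -0.13 ± 0.05 log2 (adjusted p = 0.218 by edgeR), and Trib1 0.27 ± 0.16 (adjusted p = 0.397). Of 18 cytokine and activation genes known as AP-1 targets, 16 had a positive night difference, 2 had an unadjusted p under 0.05, against 18.5% of all genes, and 0 passed. Ccl4, a chemokine of activated T cells, had 0.28 ± 0.13 log2 at a mean of 4.99 CPM (adjusted p = 0.277 by edgeR), and Il10 0.50 ± 0.23 at 0.54 CPM (adjusted p = 0.28).

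The libraries carried CD8+ T cell markers throughout, with Cd8a at 1406 ± 99.6, Cd8b1 at 1119 ± 94.1 and Cd3e at 552 ± 38.0 CPM (SD, n = 12). Each library held 24689964 to 33497078 counts on genes. Transcripts of other cell types were present as well. The 15 monocyte and macrophage markers, all 15 detected, summed to 1082 to 2557 CPM, with Lyz2 at 396 ± 174 CPM, and the 8 of 9 neutrophil markers that passed the filter, with S100a8 at 7.72 ± 5.17 CPM, summed to 13.6 to 106.9 CPM. The 12 B cell markers summed to 915.6 to 1170 CPM, with Cd79a at 33.7 ± 7.55 CPM. In bulk RNA, fewer cells of a type and less RNA per cell cannot be told apart.

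Atf3 moved with the myeloid markers. Its level had an r of 0.89 with the monocyte and macrophage sum (rho 0.87, adjusted p = 0.00416 over 32 relations with 100000 two-sided permutations) and of 0.85 with the neutrophil sum (rho 0.83, adjusted p = 0.00832). Within collection day 2 the r with the monocyte and macrophage sum was 0.94 and within collection day 1 it was 0.83. It was 0.74 without the CT10 library of collection day 1 and the CT2 library of collection day 2, the 2 farthest from the median of that sum. Without both CT10 libraries it was 0.85 with an adjusted p of 0.0853. At CT2 the monocyte and macrophage sum was 1119 CPM on collection day 2, where Atf3 was at 1.54 CPM, and 2181 CPM on collection day 1, where Atf3 was at 4.61 CPM. No other relation passed with all 12 libraries. Fos with the neutrophil sum had an r of 0.66 (rho 0.72, adjusted p = 0.168 by permutation). This r was 0.86 without CT2 of collection day 2 and 0.57 without CT10 of collection day 1. Without both CT22 and CT2 of collection day 2 it was 0.91. With those 2 libraries left out, r with the neutrophil sum was 0.79 for Jun, 0.735 for Junb, 0.725 for Fosl2 and 0.67 for Fosb. For Jund it was 0.57 and for Batf 0.04. The 2 libraries left out held the highest and the lowest neutrophil sum. With all 12 libraries, r with this sum was 0.48 for Jun, 0.33 for Junb, 0.68 for Fosl2 and 0.47 for Fosb. It was 0.08 for Jund and 0.06 for Batf, and none of these relations passed. Over all 32 relations, with all 12 libraries, r ran from -0.28 to 0.89. By night the monocyte and macrophage sum was 1958 ± 392 CPM, against 1548 ± 427 CPM by day (SD, n = 6 each). The part of these cells in the levels of the AP-1 genes was not tested.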

How the data were processed

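Polyadenylated RNA of lymph node CD8+ T cells had been made into libraries with a KAPA HyperPrep kit, per the labels' protocols. The submitters' processing notes name RSEM 1.2.28, STAR 2.5.1b, Trimmomatic 0.35 and bcl2fastq 2.19, with build GRCm38. The gene annotation is not given in the sources used here. Raw counts per gene and strand were deposited for each library, and column 4 was used, since 77.6% to 80.9% of fragments matched no gene in the other stranded column, against 11.4% to 13.9%. The rows that name no gene held 29.3% to 31.2% of fragments and were left out. The authors also deposited RSEM expected counts, rounded here to whole numbers for an alternative, and TPM, which RSEM scales to 1 sum per library.

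Counts were fitted on all genes with edgeR 4.0.16 in R 4.3.3 (TMM factors, filterByExpr by circadian time, 16396 genes kept) and quasi-likelihood F tests. P-values were adjusted by Benjamini-Hochberg over all genes, with a threshold of 0.05. The 24 h wave was a cosine and a sine; night against day and CT10 were contrasts of the circadian time fit. Correlations used log2 CPM with a prior count of 2. Alternatives were DESeq2 1.42.0, limma 3.58.1 on log2(TPM + 1) and log2(TPM + 0.1), RLE factors, no filter, expected counts, a day block and each library left out; leaving out both CT2 or both CT10 libraries, counts without strand and the CT10 contrast were added after the values were seen. Symbols matched for 50376 of 50600 identifiers in GENCODE M21.

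The members, the gene lists and the tests were chosen with earlier results of these data known. Genes were named by rule: all members, the 2 of smallest p in the test of circadian times in each pathway list, the 5 nearest to the member mean and the 3 nearest to each member. A gene that this rule takes is not reported here. The replicate number is the collection day in the labels and so pairs libraries; day deviations over 10153 genes correlated from -0.6 to 0.35 between times, with 6 of 15 pairs above 0.1. The test was checked on simulated data.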

Additional observations from a re-analysis of the deposited data

How the results depend on the processing

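No AP-1 gene passed any test of circadian time or day in the fit reported. DESeq2 called 1 member by night (Fosl2), and 246 genes for the 24 h wave, 516 for the 6 times, 521 by night, 10 by collection day and 73 at CT10. Without a filter on low counts, 2, 5, 4 and 5 members passed the 24 h, circadian time, night and CT10 tests, with 323, 2146, 1554 and 938 genes called and 10 by collection day. The median quasi-dispersion of the members was then 0.647, against 2.48 with the filter, so less spread was assumed. Limma called 14 genes on log2(TPM + 1) and 13 on log2(TPM + 0.1) for the 6 times, 30 and 29 by night, and 0 at CT10 on log2(TPM + 1). Expected counts called 3 genes at CT10. With collection day as a replicate block, 20 genes were called for the 6 times and 92 by night, and the block changed no call of a member. Without both CT2 libraries, 431, 527, 1239, 7 and 272 genes were called in the 24 h, circadian time, night, collection day and CT10 tests, and 15 pairs of members passed. Without both CT10 libraries, 21 genes were called for the times and 13 by night, 2 pairs of members passed, and 0 relations to markers passed.

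Leaving out 1 library at a time, 0 to 145 genes were called for the 24 h wave, 6 to 1745 for the times, 9 to 1765 by night, 0 to 11 by collection day, 0 to 1 for the wave by day and 0 to 788 at CT10. The highest counts came without a CT2 library, except for the wave by day, and the lowest by night (9) came without CT18 of collection day 1. The members that passed by night numbered 0 to 2 and the pairs 6 to 13. Small differences changed sign. By night Fosb ran from -0.13 to 0.26 log2, Junb from -0.082 to 0.077 and Batf from -0.073 to 0.084. By collection day Fosb ran from -0.31 to 0.11, Junb from -0.077 to 0.078, Jund from -0.046 to 0.076, Atf3 from -0.10 to 0.32 and Batf from -0.068 to 0.065. At CT10 Batf ran from -0.12 to 0.082. The night difference of Batf was 0.0022 with DESeq2 and 0.0022 with RLE factors, 0.00070 with no filter, 0.048 and 0.0496 with limma at pseudocounts of 1 and 0.1, and 0.052 without the CT2 libraries. Its collection day difference was 0.0028 and 0.0029 with limma and 0.065 without the CT2 libraries, where that of Fosb was 0.043. Without the CT10 libraries the night difference of Fosb was -0.23 and that of Junb -0.12, and Atf3 by collection day was -0.036. Ignoring strand gave Junb -0.0017 by night. The cause of these changes was not tested. Of the relations not named, 4 of 20 pairs and 15 of 29 marker relations changed sign under some alternative.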

Other observations

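For markers of myeloid cells by night and of B cells by collection day, most fitted differences had the same sign. After adjustment 0 of them passed, against 1.64% of all genes by night and 0% by collection day. In the subjective night, 14 of 15 monocyte and macrophage markers had a positive difference, with a median of 0.62 log2, and 11 had an unadjusted p under 0.05 in edgeR's quasi-likelihood test, against 18.5% of all genes. Of 8 tested neutrophil markers, 7 had a positive night difference, with a median of 0.83 log2, and 6 had an unadjusted p under 0.05. On collection day 2, all 12 B cell markers stood lower than on collection day 1, with a median difference of -0.48 log2, and 11 of 12 had an unadjusted p under 0.05, against 1.9% of all genes. Ighm, which had the highest level of the 12 at 679.9 CPM, differed by only -0.07 ± 0.04 log2. In the list of stroma and endothelium markers, Pecam1, named after its value was seen, passed with a lower level by night (-0.23 ± 0.04 log2, adjusted p = 0.0206 by edgeR). The list as a whole did not follow it, since 5 of 9 tested markers had a positive night difference, with a median of 0.08 log2. Pecam1 averaged 146 CPM, against 5.47 for Cdh5 and 6.69 for Kdr of the same list. The part of all these markers in the AP-1 levels was not tested.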
